A study of Mus musculus with 2 samples.

Results

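The genes described here belong to the thioredoxin, glutathione and NRF2 antioxidant systems. They were chosen by name, 47 genes in all, and each of them was found in a table of 44713 genes counted by RNA sequencing of mouse pancreatic islets. The db/db library came from Lepr-/- mice, which lack a functional leptin receptor and serve as a model of obesity with type 2 diabetes. The db/m library, labelled wild type, was its control, and both were of the C57BL/6 background, with no age, sex or number of animals given in the labels. With 1 library in each group, no replicates check any difference. Nothing was tested between the genotypes, and every interval covers counting error alone.

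Cells remove superoxide with superoxide dismutases, and the hydrogen peroxide that forms is broken down by catalase, by peroxiredoxins that thioredoxin recharges, and by glutathione peroxidases that consume glutathione. The transcription factor NRF2, encoded by Nfe2l2 and held in check by KEAP1, raises many of these genes by binding antioxidant response elements in their promoters. Beta cells are known for low catalase and glutathione peroxidase, and TXNIP, which binds thioredoxin and is induced by glucose, has been studied in them as a driver of cell death.

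The db/db library held 18233695 counts and the db/m library 16271129. Levels are given as CPM, the counts divided by the library size after scaling with trimmed mean of M values (TMM) factors. A single count stood for 0.0516 CPM in db/db and 0.0653 CPM in db/m. Exocrine RNA dominated, since 24 acinar markers took 66.1% of all counts in db/db and 67.4% in db/m. How much of each antioxidant gene's RNA came from acinar or from islet cells was not tested, and in such mixed RNA fewer cells of a type and less RNA per cell cannot be told apart. Summed markers of beta cells stood at 1558 CPM in each library, although 6 of the 10 genes were at least 2-fold lower in db/db. Alpha cell markers summed to 219 CPM in db/db and 59.4 CPM in db/m, and delta and PP cell markers to 98.2 CPM in db/db and 16.0 CPM in db/m. Duct markers summed to 120 CPM in db/db and 179.8 CPM in db/m. Single genes carried several sums. Ins2 held 20944 of 30178 beta marker counts in db/db and 15757 of 23854 in db/m. Gcg held 3792 of 4236 alpha marker counts in db/db and 752 of 910 in db/m. Muc1 held 1392 of 2327 duct marker counts in db/db and 1817 of 2753 in db/m. Of 6 duct genes compared, 4 had intervals below 1 and 2 had intervals including 1. In db/db, endothelial markers summed to 8.57 CPM, macrophage markers to 7.54 CPM and stellate and fibroblast markers to 9.34 CPM. In db/m these sums were 11.1 CPM for endothelial, 4.83 CPM for macrophage and 8.88 CPM for stellate and fibroblast markers. Lyz2 held 95 of 146 macrophage marker counts in db/db and 33 of 74 in db/m. Red blood cell markers had 0 counts in db/db and 12 in db/m, and adipocyte markers 2 counts in each, so both cell types left almost no RNA.

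The antioxidant genes as a set stayed close to their control level, and a few single genes moved far, in both directions. Of the 47 genes, 38 reached a mean of 1 CPM before scaling. A gene was called when it differed at least 2-fold and its 95% counting interval excluded 1. Arrdc4, Gpx3 and Ggct were called higher in db/db and Txnip and Gclc lower, while the other 33 were neither. Among all 10300 genes compared, 3.83% were called higher and 4.04% lower, together 7.87%, beside 13.2% of the antioxidant genes. The median log2 ratio of db/db over db/m was -0.04 for the antioxidant genes and 0.02 for all genes, and the lower and upper quartiles of the antioxidant genes were -0.19 and 0.28. Ratios were above 1 for 17 genes and below 1 for 21 with TMM scaling, beside 5401 above and 4899 below among all genes. With total counts, under which every log2 ratio is larger by 0.175, the antioxidant genes were above 1 for 28 and below 1 for 10. Their median was then 0.14, beside 0.20 for all genes, and the called antioxidant genes were the same. The 11 genes that changed side were Glrx2, Prdx1, Prdx2, Gpx1, Gsr, Sod2, Keap1, Gsta3, Gstt1, Gstk1 and Mgst3, each with an interval including 1 under TMM. At a limit of 1.5-fold, Gstm1 joined the genes called higher and Hmox1 those called lower, making 4 and 3, beside 8.63% and 8.87% of all genes.

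**Figure D1:**
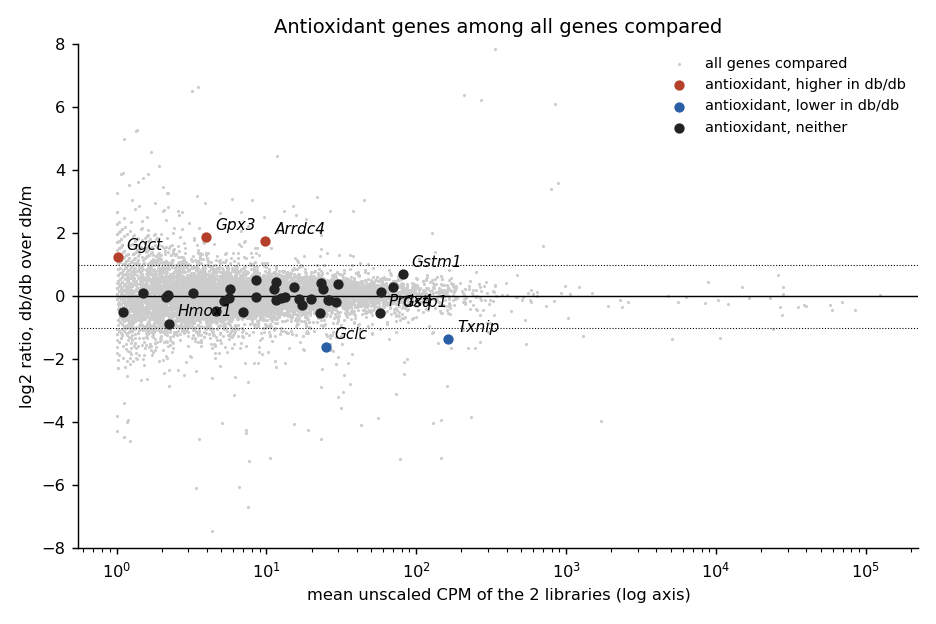
Log2 ratio of db/db over db/m (vertical axis) against the mean unscaled CPM of both libraries (horizontal axis, log scale), 1 point per gene; grey points are all 10300 genes compared and coloured or black points the 38 antioxidant genes among them. Dotted lines mark 2-fold, and Gpx3, Arrdc4 and Ggct lie above the upper line while Gclc and Txnip lie below the lower one.

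Txnip and its relative Arrdc4 moved in opposite directions. Both encode alpha-arrestins that restrain glucose uptake, and both are known targets of the glucose-sensing factors ChREBP and MondoA, but thioredoxin binding is a property of TXNIP. Txnip had 1806 counts (93.2 CPM) in db/db and 3703 (241.8 CPM) in db/m, and was 2.59-fold lower (95% interval 2.45 to 2.75). Arrdc4 had 284 counts (14.7 CPM) in db/db and 67 (4.38 CPM) in db/m, and was 3.35-fold higher (2.56 to 4.44). Set against each other inside a library, which no scaling can change, there were 6.36 Txnip counts per Arrdc4 count in db/db and 55.3 in db/m, an 8.69-fold lower ratio (6.59 to 11.6). Against Txn1, the cytosolic thioredoxin that TXNIP binds, Txnip counts stood at 7.78 per count in db/db and 23.7 in db/m. Txnip alone took 11.9% of the counts of the 47 genes in db/db and 26.8% in db/m.

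Of 13 genes listed as arrestin relatives or regulators of Txnip, 11 were compared and none was called in either direction, beside the 7.87% of all genes, and their median log2 ratio was 0.08. Mlxipl, which encodes ChREBP, had 123 counts in db/db and 144 in db/m (1.48-fold lower, 1.16 to 1.90). Mlxip, which encodes MondoA, had 851 counts in db/db and 636 in db/m, and its ratio of 1.06 (0.953 to 1.17) did not differ beyond counting error. Arrdc3, another alpha-arrestin, had 169 counts in db/db and 176 in db/m (1.32-fold lower, 1.06 to 1.64). Mlxipl, Mlxip and Arrdc3 were picked once the values were known.

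The Txnip gene lies on chromosome 3 (96557957 to 96561857 in GRCm38) inside the span that RefSeq gives to Gm15441 (96555768 to 96566801), a long non-coding RNA known as an antisense partner of Txnip. Gm15441, looked up after the values were seen, had 120 counts in db/db and 868 in db/m and was 9.15-fold lower (7.55 to 11.2). The sources used here do not state whether counting used strand, so reads of the antisense partners cannot be told apart. Summed over both genes, the locus had 1926 counts in db/db and 4571 in db/m and was 3.0-fold lower (2.85 to 3.17). The counted reads of the locus were thus lower however they were split between its genes. Any reads left uncounted because they matched both genes are missing from this sum.

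The promoters of both genes are shown because ChREBP and MondoA bind a paired E-box element, searched here on both strands as 2 copies of CACGNG with 5 bases between them. The RefSeq windows, from 250 bases before to 50 after the start site in GRCm38.p6, were found for 40 of the 47 genes. Txnip was the 1 gene among these 40 to hold the paired element, at position -85 from the start site, and 15 of 27025 genes with a window (0.0555%) hold it. The Arrdc4 window held no paired element in this spelling but a single E-box, CACGTG, at -193, which 8.09% of all genes hold. CCAAT boxes, the sites of the factor NF-Y, were searched after the sequences were seen: Txnip had 2 matches and Arrdc4 had 6, a number that 24 genes (0.0888%) reach. Capitals below mark the paired E-box element or E-box and the CCAAT boxes on either strand, which do not overlap, and the 250 bases before each start site are given 5′ to 3′.
Txnip promoter, chr3:96557707-96557956, plus strand: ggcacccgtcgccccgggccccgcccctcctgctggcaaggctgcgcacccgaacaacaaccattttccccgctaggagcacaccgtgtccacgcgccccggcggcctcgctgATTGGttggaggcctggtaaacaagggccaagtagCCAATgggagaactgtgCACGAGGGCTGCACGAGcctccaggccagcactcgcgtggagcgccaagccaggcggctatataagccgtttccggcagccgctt
Arrdc4 promoter, chr7:68749239-68749488, minus strand: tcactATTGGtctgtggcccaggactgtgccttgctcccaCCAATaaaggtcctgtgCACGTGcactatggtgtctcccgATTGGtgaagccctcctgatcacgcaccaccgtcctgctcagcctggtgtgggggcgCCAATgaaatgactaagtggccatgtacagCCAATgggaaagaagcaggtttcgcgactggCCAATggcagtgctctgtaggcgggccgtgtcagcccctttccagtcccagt

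**Figure D2:**
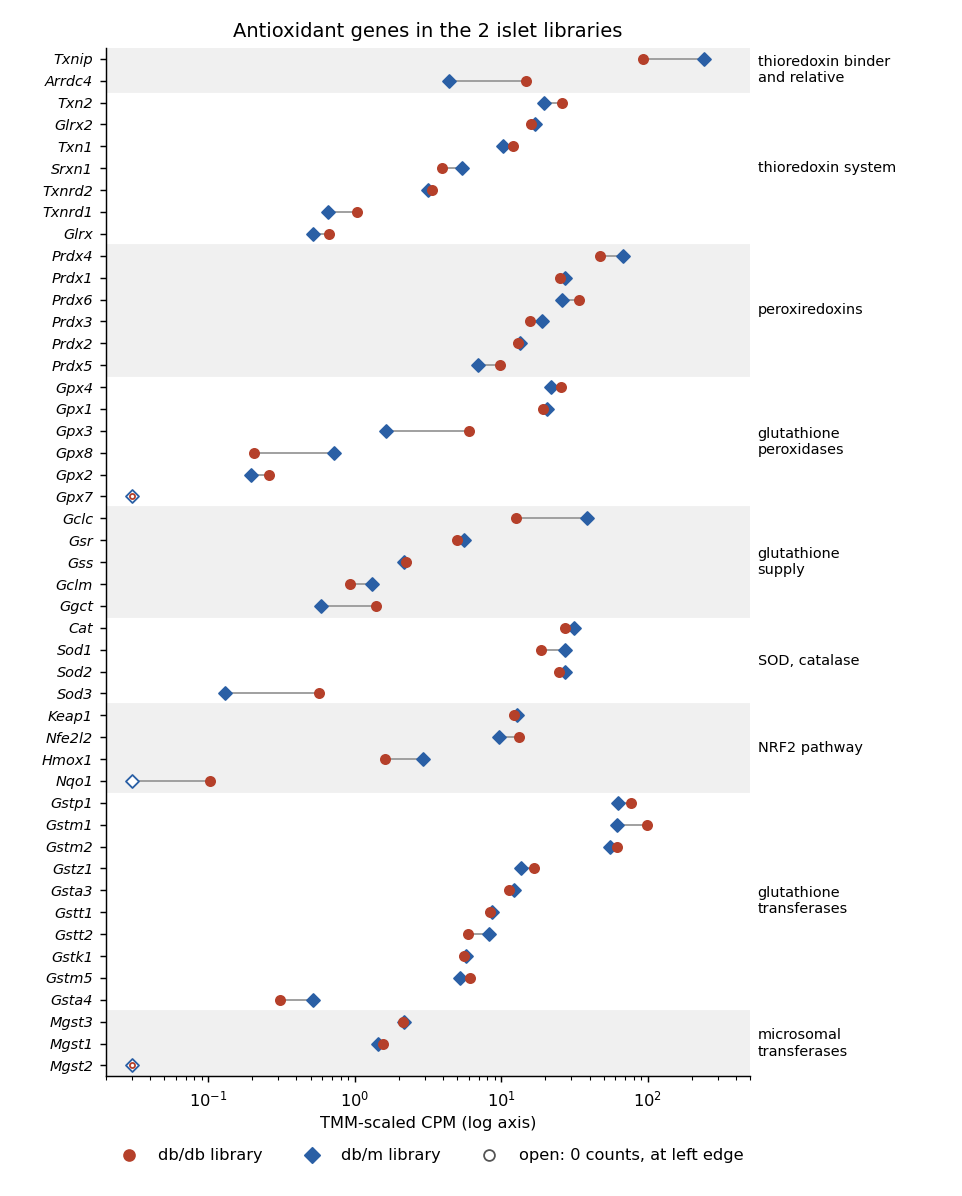
TMM-scaled CPM (horizontal axis, log scale) of each of the 47 antioxidant genes, grouped by role, with a red circle for the db/db library and a blue diamond for the db/m library. The symbols of most genes nearly coincide, while Txnip, Gclc, Arrdc4 and Gpx3 show wide gaps; open symbols at the left edge are genes with 0 counts.

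In the thioredoxin system itself, the genes compared stayed within 1.5-fold. The 7 genes of this system encode thioredoxins, their reductases, glutaredoxins and sulfiredoxin. Of these, 5 were compared and none was called, beside 7.87% of all genes. Summed counts were 1221 in db/db and 867 in db/m, a ratio of 1.11 (1.02 to 1.22), and 1.0 (0.894 to 1.12) without Txn2. Txn2, the mitochondrial thioredoxin, had 505 counts in db/db and 301 in db/m and stood at 1.33-fold (1.15 to 1.53). Txn1 had 232 counts in db/db and 156 in db/m and a ratio of 1.18 (0.955 to 1.45), which includes 1. The reductases were thinly counted, with 20 counts in db/db and 10 in db/m for cytosolic Txnrd1, below the filter, and 65 in db/db and 48 in db/m for mitochondrial Txnrd2, so differences of moderate size were not detectable. Srxn1, the sulfiredoxin that restores over-oxidised peroxiredoxins, had 76 counts in db/db and 83 in db/m and was 1.38-fold lower, with an interval of 1.0 to 1.91 that only just excludes 1. Of the glutaredoxins, which reduce glutathionylated proteins, mitochondrial Glrx2 had 310 counts in db/db and 261 in db/m (ratio 0.939, 0.794 to 1.11) and Glrx had 13 in db/db and 8 in db/m, below the filter.

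Among the peroxiredoxins, which reduce hydrogen peroxide with a reactive cysteine, all 6 were compared and none was called, beside 7.87% of all genes. Prdx4, the form of the endoplasmic reticulum, had the lowest ratio, with 912 counts in db/db and 1043 in db/m (1.45-fold lower, 1.32 to 1.58). Prdx5 and Prdx6 stood at the other end, with 191 counts in db/db and 106 in db/m for Prdx5 (1.42-fold, 1.12 to 1.82) and 658 in db/db and 397 in db/m for Prdx6 (1.31-fold, 1.15 to 1.49). Mitochondrial Prdx3 had 305 counts in db/db and 291 in db/m (1.21-fold lower, 1.02 to 1.42). Its log2 ratio was -0.27 with TMM and shrank to -0.10 with total counts. Prdx1 and Prdx2, the cytosolic forms, had ratios of 0.923 and 0.972 with intervals including 1. The summed family gave a ratio of 0.902 (0.854 to 0.952) with TMM and of 1.02 with total counts, so it has no direction that holds under both scalings.

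Among the glutathione peroxidases, the secreted form was higher and the cellular forms that passed the filter stayed within 2-fold. Gpx3, the secreted plasma form, had 116 counts (5.99 CPM) in db/db and 25 (1.63 CPM) in db/m, and was 3.67-fold higher (2.36 to 5.90). Gpx1, the cytosolic enzyme, had 373 counts in db/db and 313 in db/m (ratio 0.942, 0.808 to 1.10), and Gpx4, which reduces lipid peroxides and guards against ferroptosis, had 491 in db/db and 334 in db/m (1.16-fold, 1.01 to 1.34). Within a library there were 0.311 Gpx3 counts per Gpx1 count in db/db and 0.0799 in db/m, a 3.89-fold higher ratio (2.43 to 6.42). The rise of Gpx3 stood beside 3.68-fold higher summed alpha cell markers (3.42 to 3.96), of which Gcg and Gc were called among 3 compared. It also stood beside 6.14-fold higher delta and PP cell markers (5.37 to 7.04), with Sst, Ppy and Pyy called among 4. The alpha cell factors Irx1 and Irx2 had 3 and 2 counts in db/db, and both had 0 in db/m. Whether cell composition has a part in the Gpx3 difference was not tested. Gpx2, Gpx7 and Gpx8 were below the filter, with 5 counts in db/db and 3 in db/m for Gpx2, none in either library for Gpx7, where 3 counts correspond to 0.155 CPM in db/db and 0.196 CPM in db/m, and 4 in db/db and 11 in db/m for Gpx8.

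In glutathione supply, the enzyme subunit of the first step was lower and the genes of the later steps were mostly within counting error. Gclc, the catalytic subunit of the rate-limiting enzyme of glutathione synthesis, had 245 counts (12.6 CPM) in db/db and 590 (38.5 CPM) in db/m, and was 3.05-fold lower (2.62 to 3.55). Gclm, the modifier subunit of the same enzyme, had 18 counts in db/db and 20 in db/m, and its 1.41-fold lower level had an interval from 0.706 to 2.82. Counts of Gclc per Gclm count were 13.6 in db/db and 29.5 in db/m, a 2.17-fold lower ratio (1.06 to 4.39). Gss, which completes glutathione, had 43 counts in db/db and 33 in db/m (ratio 1.03, 0.639 to 1.67), and Gsr, which regenerates it from its oxidised form, had 96 in db/db and 85 in db/m (0.893, 0.660 to 1.21), neither beyond counting error. Ggct, which cuts gamma-glutamyl peptides in glutathione turnover, had 27 counts in db/db and 9 in db/m and was 2.37-fold higher (1.08 to 5.73), a call that rests on few counts and is lost when the whole interval must lie beyond 2-fold. Without Gclc the group summed to a ratio of 0.989 (0.792 to 1.24).

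Of the superoxide dismutases and catalase, 3 were compared and none was called, beside 7.87% of all genes. Sod1, the cytosolic dismutase, had 359 counts in db/db and 416 in db/m (1.47-fold lower, 1.27 to 1.69), whereas mitochondrial Sod2 had 476 in db/db and 413 in db/m (ratio 0.911, 0.797 to 1.04) and lay above 1 with total counts. Cat, the peroxisomal catalase, had 529 counts in db/db and 481 in db/m and was 1.15-fold lower (1.01 to 1.30). Its log2 ratio was -0.20 with TMM and shrank to -0.03 with total counts. Sod3, the extracellular dismutase, had 11 counts in db/db and 2 in db/m, a ratio of 4.35 whose interval (0.949 to 40.4) includes 1.

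Grouped by compartment after the values were seen, the extracellular enzymes Gpx3 and Sod3 summed to 127 counts in db/db and 27 in db/m (3.72-fold, 2.44 to 5.86), a sum that Gpx3 carries. The 6 mitochondrial enzymes Txn2, Txnrd2, Prdx3, Prdx5, Glrx2 and Sod2 summed to 1852 counts in db/db and 1420 in db/m, a ratio of 1.03 (0.961 to 1.11). Prdx4, Gpx7 and Gpx8 of the endoplasmic reticulum summed to 916 counts in db/db and 1054 in db/m and were 1.46-fold lower (1.33 to 1.59), almost all of it Prdx4.

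**Figure D3:**
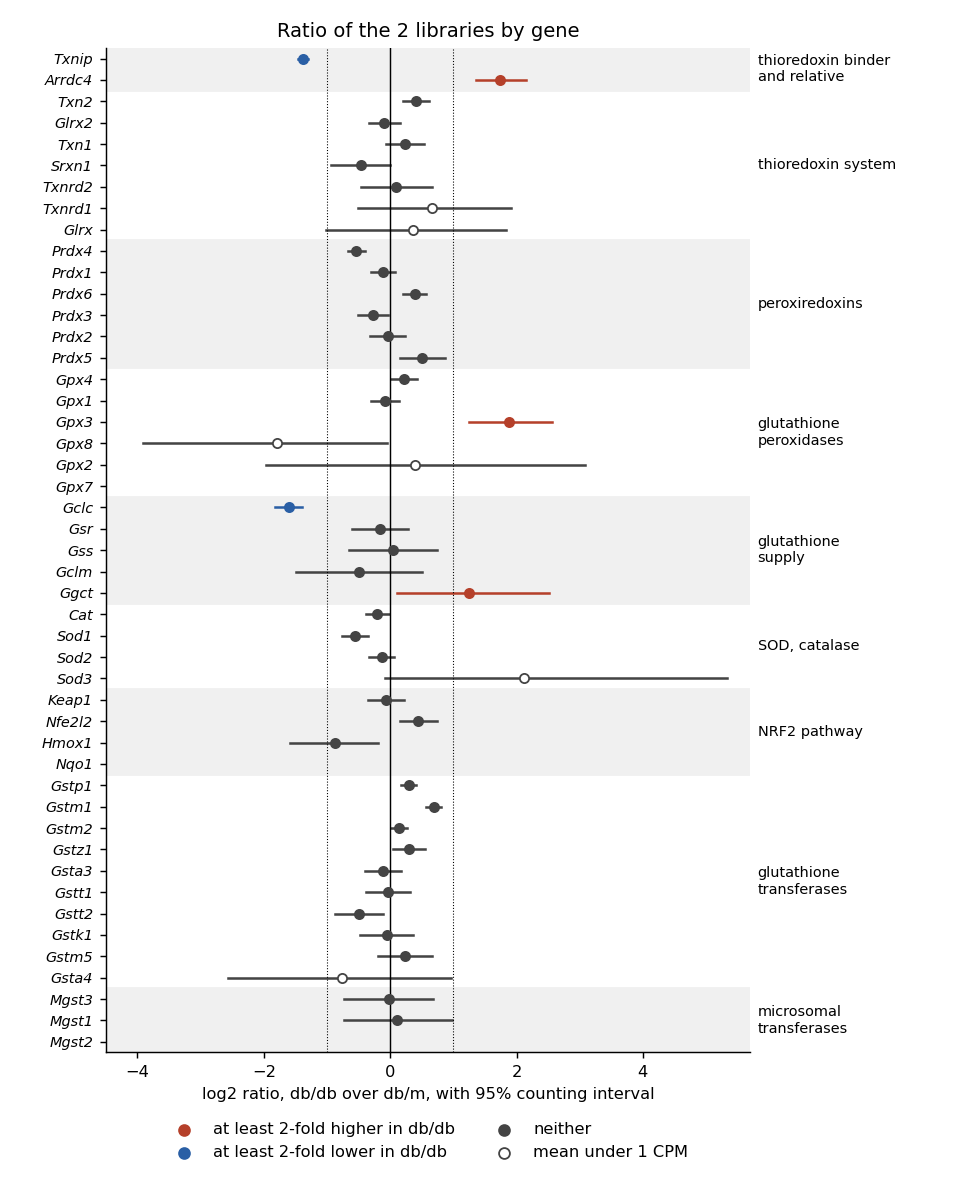
Log2 ratio of db/db over db/m for each antioxidant gene (points) with its 95% counting interval (bars), grouped by role; dotted lines mark 2-fold, open points lie under a mean of 1 CPM, and genes with at most 3 counts in each library have no point. The bars of 17 of the 38 compared genes cross 0, beside 6291 of all 10300 genes compared with an interval including 1. Txnip, Gclc, Arrdc4 and Gpx3 have whole bars beyond 2-fold.

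The NRF2 pathway genes were mixed. Nfe2l2 had 255 counts in db/db and 148 in db/m and stood at 1.36-fold (1.11 to 1.68), and Keap1 had 235 in db/db and 195 in db/m (ratio 0.952, 0.784 to 1.16), so the ratio of Nfe2l2 to Keap1 counts was 1.43-fold higher in db/db (1.07 to 1.91). Hmox1, the inducible heme oxygenase, went the other way, with 31 counts in db/db and 45 in db/m (1.84-fold lower, 1.14 to 3.0). Nqo1, the quinone reductase often used as an NRF2 readout, had 2 counts in db/db and 0 in db/m, too few for a fold.

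Further NRF2 targets outside the 47 genes had mostly ratios above 1, within 2-fold for all 21 compared. Of 26, 21 were compared and none was called, beside 7.87% of all genes. An interval above 1 was found for 9 and below 1 for 1, beside 20.7% above and 18.2% below among all genes compared. The median log2 ratio of the 21 was 0.30, beside 0.02 for all genes. Slc7a11, the cystine importer that feeds glutathione synthesis, had 620 counts in db/db and 334 in db/m (1.47-fold, 1.28 to 1.68). Ephx1, an epoxide hydrolase, had 168 in db/db and 83 in db/m (1.60-fold, 1.22 to 2.11). Slc3a2 was the 1 gene with an interval below 1, with 2930 counts in db/db and 2753 in db/m (1.19-fold lower, 1.13 to 1.25). These choices followed from the values. Among 13 NRF2 partners and repressors 11 were compared, with a median of 0.10, and 1 was called (9.09%, beside 7.87% of all genes). This was Maff, a small MAF protein that pairs with NRF2, with 42 counts in db/db and 104 in db/m (3.13-fold lower, 2.17 to 4.6). Sqstm1, which releases NRF2 by binding KEAP1, had 1940 counts in db/db and 1318 in db/m (1.16-fold, 1.08 to 1.25).

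Genes sensitive to tissue handling also differed between the libraries. Fos had 145 counts in db/db and 1670 in db/m, and the chaperone gene Hspa1b had 164 in db/db and 4613 in db/m, both chosen after their values were seen. They were 14.6-fold (12.3 to 17.4) and 35.6-fold (30.5 to 41.8) lower. Txnip, Gclc, Hmox1 and Maff were lower in the same library, while Arrdc4, Gpx3 and Ggct were higher in it. Whether tissue handling has a part in any of these antioxidant gene differences was not tested.

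Matches to the core of the antioxidant response element, which NRF2 binds, are shown for genes that were called or are long-known targets. Whether NRF2 binds at these matches was not tested. The core TGACNNNGC, or GCNNNGTCA when read on the other strand, was found in the windows of 11 of the 40 genes (27.5%), against 14.0% of all 27025 genes. The 11 genes were Gsta3, Nfe2l2, Srxn1, Gstm5, Gclm, Prdx1, Ggct, Mgst1, Arrdc4, Txnrd1 and Sod1. They include Arrdc4 and Ggct, both called higher, and also Sod1 and Srxn1, which were lower but not called. The interval of Srxn1 only just excludes 1. Whether holding the core goes with a direction was not tested, and elements outside the windows were not searched. No promoter window was found for Gclc, Hmox1, Gsr, Prdx6, Gsta4, Sod3 and Gstt2, so these genes were not searched. Capitals mark the core, with 8 bases on either side, in GRCm38.p6.
Arrdc4, chr7:68749250-68749274, minus strand: gtaggcggGCCGTGTCAgccccttt
Ggct, chr6:54993025-54993049, minus strand: atagaaaaGCGACGTCAgtgggcgg
Gclm, chr3:122245415-122245439, plus strand: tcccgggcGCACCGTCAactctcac
Prdx1, chr4:116685458-116685482, plus strand: gggaaagcGCTGAGTCAtcccccgt
Txnrd1, chr10:82859106-82859130, plus strand: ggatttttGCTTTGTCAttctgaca
Nfe2l2, chr2:75704887-75704911, minus strand: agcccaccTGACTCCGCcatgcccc

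**Figure D4:**
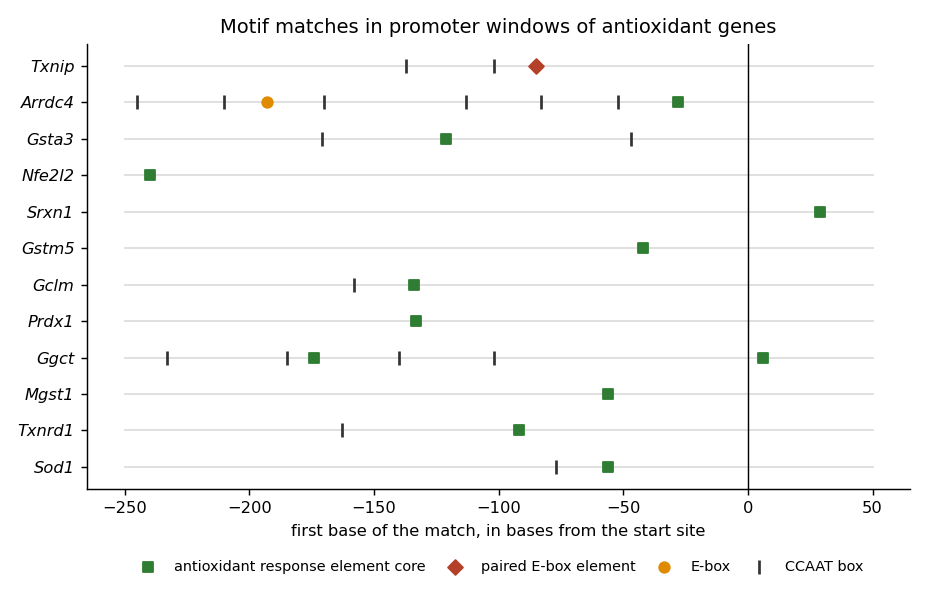
Motif matches in the promoter windows of Txnip, Arrdc4 and the other genes with an antioxidant response element core, by the position of the first base of the match relative to the start site (horizontal axis, in bases); some genes have more than 1 window, drawn on the same line. Arrdc4 holds 6 CCAAT boxes and Txnip the 1 paired E-box element, at -85.

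Glutathione transferases, which join glutathione to reactive molecules, held the most counts of any group over both libraries. Of 10 genes 9 were compared and none was called, beside 7.87% of all genes. The summed counts were 5618 in db/db and 3564 in db/m, a ratio of 1.25 (1.19 to 1.30), or 1.12 (1.06 to 1.17) without Gstm1. Gstm1 had the highest ratio of them, with 1908 counts (98.5 CPM) in db/db and 937 (61.2 CPM) in db/m (1.61-fold, 1.49 to 1.74). Its neighbour on chromosome 3, Gstm2, had 1183 counts in db/db and 846 in db/m (1.11-fold, 1.01 to 1.21), and Gstm1 counts per Gstm2 count were 1.61 in db/db and 1.11 in db/m. The mu class genes resemble each other in sequence, so each one's value is uncertain where reads could have been split between them. Gstp1 had 1477 counts in db/db and 951 in db/m (1.23-fold, 1.13 to 1.33) and Gstz1, of tyrosine breakdown, had 324 in db/db and 209 in db/m (1.23-fold, 1.03 to 1.46). Gstt2 was on the other side, with 114 counts in db/db and 127 in db/m (1.41-fold lower, 1.09 to 1.83). Gsta3, Gstt1, Gstk1 and Gstm5 had ratios between 0.922 and 1.18 with intervals including 1, and Gsta4 had 6 counts in db/db and 8 in db/m, below the filter. The membrane-bound transferases Mgst1 and Mgst3 had ratios of 1.08 and 0.982, with intervals including 1, and Mgst2 had no count in either library.

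Calls in the other glutathione, thioredoxin-fold and oxidant source lists stood beside the 7.87% of all genes compared. Of 17 further glutathione transferases found, 7 were compared and none was called, with a median log2 ratio of 0.20. Of 20 other glutathione genes, 12 were compared and none was called (median -0.02). Chac1, which degrades glutathione, was picked out after its value was known and had 640 counts in db/db and 315 in db/m (1.61-fold, 1.4 to 1.84). Of 42 thioredoxin-fold, disulfide and selenoprotein genes, 39 were compared and 5.13% were called, beside 7.87% of all genes, with a median of 0.10. Txndc16, of the endoplasmic reticulum, was higher, with 72 counts in db/db and 27 in db/m (2.11-fold, 1.34 to 3.41), and Msrb2, the mitochondrial methionine sulfoxide reductase, was lower, with 15 in db/db and 30 in db/m (2.53-fold, 1.32 to 5.06). In a list of oxidant sources and related genes, 9 of 16 were compared and 3 were called (33.3%, beside 7.87% of all genes), with a median log2 ratio of -0.20. Noxo1, an NADPH oxidase organiser, was higher with 38 counts in db/db and 8 in db/m (3.75-fold, 1.73 to 9.32). Of the oxidases in the list, Nox1 had no count in either library and Nox4 had 0 in db/db and 2 in db/m. Duox2 had 34 counts in db/db and 33 in db/m. Lower were Xdh, xanthine dehydrogenase, with 14 counts in db/db and 29 in db/m (2.62-fold, 1.34 to 5.37), and P4ha1, a collagen prolyl hydroxylase, with 162 in db/db and 279 in db/m (2.18-fold, 1.79 to 2.66).

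**Figure D5:**
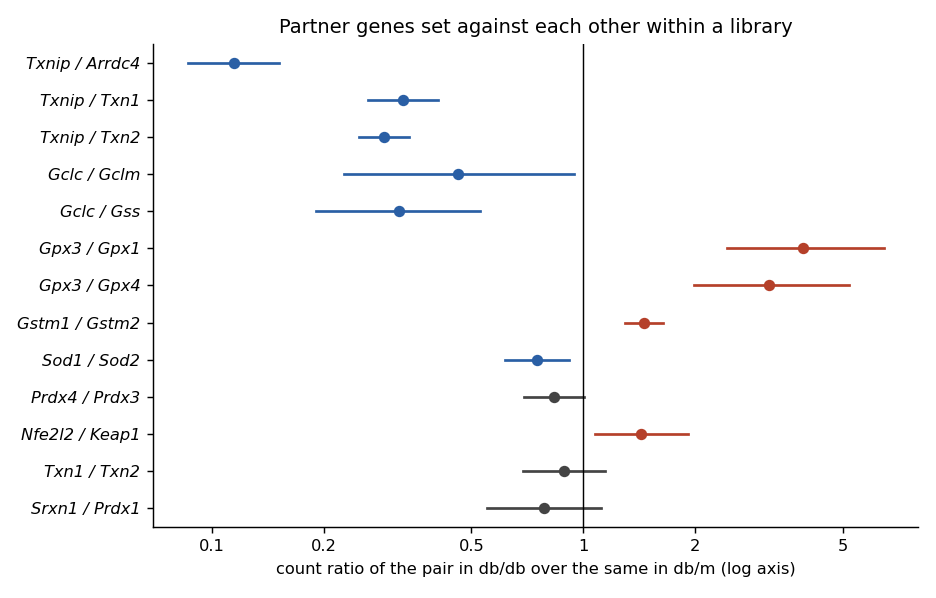
Counts of one gene per count of its partner in db/db, divided by the same in db/m (points, log axis), with 95% counting intervals, for 13 gene pairs chosen after the values were seen. Txnip per Arrdc4 count lies farthest below 1, at 0.115, and Gpx3 per Gpx1 count farthest above it, at 3.89.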

How the data were processed

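The authors deposited whole-number counts per gene, with 1 column per library. HISAT2 2.0.4 and the builds mm10 and GRCm38 are named, per the submitters' processing notes. The sources used here do not state the counting program, annotation, use of strand or treatment of reads with several matches. Counts were scaled with TMM factors (edgeR 4.0.16, R 4.3.3) and given as CPM; Python 3.11.15, scipy 1.17.1, numpy 2.4.6 and pandas 2.3.3 did the rest. Ratios of db/db over db/m have exact 95% Clopper-Pearson intervals on the db/db share of both counts, and ratios of partner genes have exact conditional intervals. Intervals treat reads as independent, which PCR copies are not. A call needed a 2-fold difference, a mean of 1 CPM before scaling and an interval excluding 1. Levels were not compared between genes, because transcript lengths were not used here. The scripts were tested on simulated data. The 47 genes, 9 role groups, 7 pathway lists and 10 marker lists were chosen with earlier results of these data known. All 47 genes are named, and others if called or where stated. Promoters and positions come from RefSeq on GRCm38.p6, by symbol. The series describes triplicates, of which 1 library per group was analysed here. Alternatives were total counts, DESeq2 1.42.0 size factors, total counts leaving out the hormone and acinar genes, a filter of 0 or 10 CPM, 1.5-fold, and an interval wholly beyond 2-fold. Figures were drawn with matplotlib 3.10.9.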

Additional observations from a re-analysis of the deposited data

How the results depend on the processing

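Txnip and Gclc were called lower under all 7 alternatives. Arrdc4 and Gpx3 were called higher under 6 of them, and Ggct under 5. With a mean of at least 10 CPM none of the 3 was left to compare and 0 antioxidant genes were called higher. Without a filter Gpx8 was also called lower. At 1.5-fold Gstm1 was also called higher and Hmox1 lower, making 4 and 3, beside 8.63% and 8.87% of all genes (889 and 914). Over all genes, against 395 higher and 416 lower, the calls were 745 and 814 without a filter, 36 and 95 at 10 CPM, and 99 and 137 with the interval wholly beyond 2-fold; with total counts 277 were lower and 564 higher, so that 67.1% of calls were higher against 48.7% with TMM. The median log2 ratio of the antioxidant genes ranged from -0.08 at 10 CPM to 0.14 with total counts. The median of all genes was 0.04 at 10 CPM and 0.20 with total counts. No paired analysis was possible because each group has 1 library. Low counts limit several genes, among them Gclm, Ggct, Txnrd1, Sod3 and Gpx8.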

Other observations

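Several antioxidant genes overlap another gene in the RefSeq annotation, and the counts of some lie close together. Gstz1 had 324 counts in db/db and 209 in db/m, and Pomt2, which overlaps it, had 325 in db/db and 205 in db/m. Gstm5 had 119 counts in db/db and 80 in db/m beside 96 in db/db and 82 in db/m for 4933431E20Rik, and Prdx5 had 191 in db/db and 106 in db/m beside 137 in db/db and 89 in db/m for Trmt112. Whether reads were shared between such genes was not tested. Copies named after an antioxidant gene held few reads, with 8 counts in db/db and 5 in db/m for Gstm2-ps1, 1 in db/db and 0 in db/m for Prdx6-ps2, and none for the other 4.

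Some abundantly counted genes of the pathway lists differed by less than 2-fold but had narrow intervals. Sepp1, the plasma selenium carrier selenoprotein P, had 7725 counts in db/db and 10253 in db/m and was 1.68-fold lower (1.63 to 1.73). Ucp2, the mitochondrial carrier studied in beta cells as a brake on insulin secretion, had 413 counts in db/db and 589 in db/m and was 1.80-fold lower (1.59 to 2.05). Sesn1, a p53-induced sestrin, had 1136 counts in db/db and 541 in db/m and was 1.66-fold higher (1.5 to 1.84). All 3 were chosen after their values were seen.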
